A study of Mus musculus with 8 samples.

Results

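Exposure to AzaC was examined by comparing the 4 arrays of cultures that received AzaC (groups AzaC and AzaC/TSA) with the 4 arrays of cultures that did not (groups untreated and TSA). These were all 8 arrays of the series, and they were chosen by treatment label alone. The cells were neurospheres, that is, floating cultures of neural stem and progenitor cells. They came from forebrains of mouse embryos at embryonic day 14.5, each isolated individually, and every culture, treated or not, carried a bcl2 transgene whose promoter is not named in the sources used here. AzaC (5-aza-2'-deoxycytidine) was given at 500 nM and TSA (trichostatin A) at 150 nM, alone or together, for 2 days. The treatments were run side by side in 2 independent experiments, which gave 2 arrays per group. The labels do not say which embryo each culture of an experiment came from, so p-values measure only the spread between these cultures.

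AzaC is a cytidine analogue that is built into replicating DNA, where it traps DNA methyltransferases and so prevents methylation of new strands. Methyl groups sit mainly on cytosines followed by guanine (CpG), and methylated CpG-rich promoters are usually silent, with germ-line genes and imprinted alleles as well-known examples. TSA blocks histone deacetylases and acts within hours without DNA replication. The comparison asks which genes differed with AzaC whether or not TSA was present, and how large a difference the 8 arrays could have missed.

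Each AzaC array was set against the array of the same experiment and the same TSA level, which gave 4 matched pairs with no array in common. The pairs were AzaC 1 with untreated 1, AzaC 2 with untreated 2, AzaC/TSA 1 with TSA 1 and AzaC/TSA 2 with TSA 2. A shift is the log2 signal with AzaC minus the log2 signal without it. Signals under 20.01, which is 10% of the common array level, were raised to that value first. A probe set, the group of oligonucleotides that reads 1 transcript, was tested when it reached a signal of 50.03 on at least 2 arrays. Of the 12422 probe sets that are not controls, 7987 did (64.3%), for 6011 named genes. The fitted shift came from a linear model (limma) with AzaC, TSA and the experiment as terms. Its 95% interval applies to 1 probe set at a time.

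The arrays were alike in level, with a median signal of 59.3 to 72.8, and 3.37% to 5.97% of tested probe sets lay under the floor, most on untreated 2. The ratio of 5' to 3' actin probe signal, a measure of RNA integrity, was 0.290 to 0.471 over the 8 arrays. In the order of the pairs above, it was 0.427, 0.332, 0.330 and 0.378 without AzaC and 0.471, 0.398, 0.290 and 0.390 with it. The same ratio for Gapdh was 0.904, 0.867, 0.848 and 0.808 without AzaC and 1.04, 0.993, 0.738 and 0.982 with it. Of 7 markers of neural stem and progenitor cells, 6 reached the filter signal on at least 2 arrays. Of the markers with a probe set, it was 5 of 5 for neurons, 2 of 3 for astrocytes and 2 of 2 for oligodendrocytes. For fibroblasts and meninges it was 3 of 3 and for blood 3 of 4. For microglia and macrophages it was 2 of 4 and for endothelium 1 of 3. Ptprc (pan-leukocyte), Aif1 and Itgam (microglia) and Cdh5 (endothelium) were under the floor on all 8 arrays. The 4 microglia and macrophage markers summed to a signal of 112.4 to 530.4 with AzaC and 95.5 to 508 without it, and the 4 blood markers to 58.5 to 191.3 and 108.5 to 168.4.

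No probe set passed an adjusted p of 0.05 for AzaC (0 of 7987, percent called 0). The smallest adjusted p was 0.407. At an unadjusted p under 0.05, 278 probe sets (3.48%) were higher with AzaC and 169 (2.12%) lower, 447 in all (5.6%). From the same fit and the same arrays, 2082 probe sets (26.1%) passed for TSA, 1021 higher and 1061 lower. The TSA shift and the AzaC shift differed from each other at an adjusted p under 0.05 for 1270 probe sets (15.9%), in a test added after the data had been seen. The size of the AzaC shift was under 1.07 for 99% of probe sets, against 2.84 for TSA, both on the log2 scale. A shift over 1, which is a 2-fold change of signal, was fitted for 106 probe sets with AzaC (82 higher, 24 lower) and for 1221 with TSA.

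The intervals set the size of effect that these arrays speak to. The median half-width of the 95% interval was 0.54 on the log2 scale, a factor of 1.45, and the middle 80% of probe sets had half-widths from 0.34 to 0.96. The interval excluded a 1.5-fold change in either direction for 2392 probe sets (29.9%), a 2-fold change for 5665 (70.9%) and a 4-fold change for 7876 (98.6%). A 4-fold change therefore stayed inside the interval for 111 probe sets. The fit takes the 4 pairs as independent. The shifts of the 2 pairs of experiment 2 correlated across probe sets (r = 0.22), those of experiment 1 hardly (r = 0.01). The intervals and these shares therefore describe these cultures, and the intervals may be too narrow for a further experiment. Precision followed signal: among 2966 probe sets of mean signal under 100, 35.9% excluded a 2-fold change, with a median half-width of 0.82. Among the 3148 with signals of 100 to 400 the share was 88.8%, and among the 1873 over 400 it was 96.3%, with a half-width of 0.36.

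**Figure D1:**
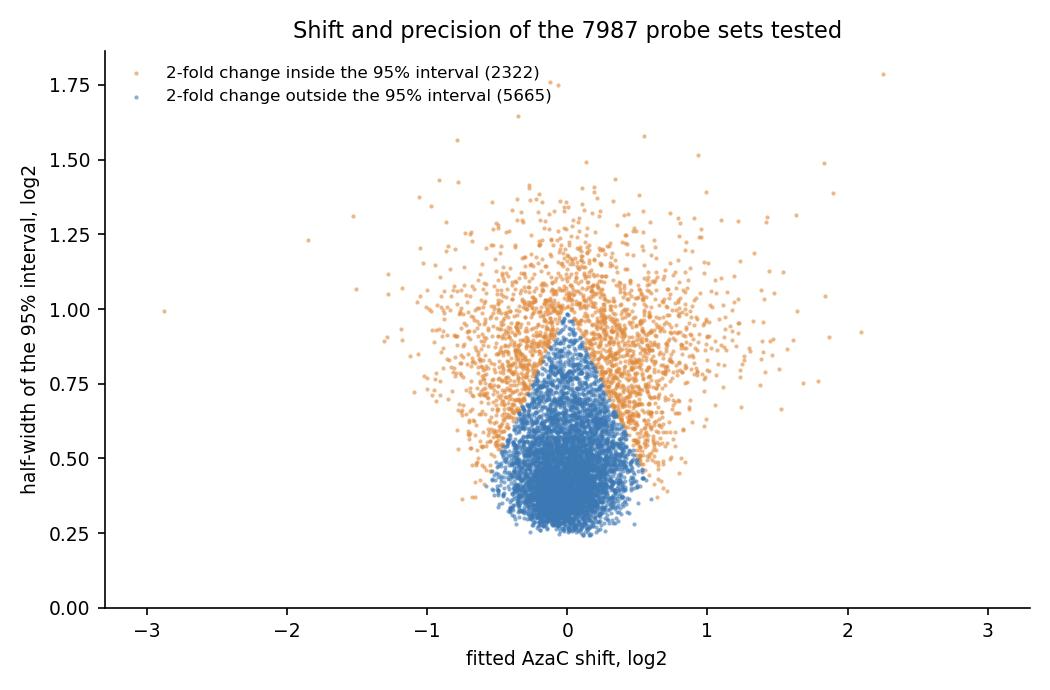
Fitted AzaC shift (horizontal axis, log2) against the half-width of its 95% interval (vertical axis, log2) for the 7987 probe sets tested, 1 point each. Blue points are the 5665 whose interval excludes a 2-fold change. They fill a wedge around 0 whose tip lies at a half-width of 1, and the orange points outside it are the 2322 for which a 2-fold change lies inside the interval.

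Agreement between the pairs was sought next. All 4 pairs shifted upward for 585 probe sets (7.32%) and downward for 562 (7.04%), 1147 in all, and 317 of these had an unadjusted p under 0.05. Counted by gene, 419 of 6011 were higher in every pair (6.97%) and 450 lower (7.49%). A shift of at least 0.5 in every pair was found for 25 probe sets upward (0.313%) and 10 downward (0.125%), of which 21 and 7 had mean signals under 100. A shift of at least 1 in every pair was found upward for 4 probe sets (0.0501%), of Ropn1l, Slc29a1, Aak1 and Iglc1, and downward for none (0 of 7987, percent called 0). Slc29a1 and Aak1 were each read by further tested probe sets that went the other way, with fitted shifts of -0.86 for Slc29a1 and of -0.57 and -0.09 for Aak1. Apart from Ropn1l, these genes are named after their values were seen. In this count the probe sets of Slc29a1 (3 arrays) and Iglc1 (2 arrays) reached the filter signal only with AzaC. Those arrays alone let them be tested, so the filter itself favoured a rise. With 4 pairs, an exact two-sided sign-flip test of a single probe set cannot give a p below 0.125.

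The genes described in detail are the 10 higher and 10 lower ones of smallest p among those that shifted the same way in all 4 pairs. None passed the test, with adjusted p from 0.718 to 0.849 in limma, so their values describe these cultures only. Choice by smallest p also favours genes whose groups do not overlap, and the share of such probe sets among all those tested is not given here. Signals are given in the order untreated 1, untreated 2, TSA 1 and TSA 2 without AzaC, and in the same order of pairs with it.

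Apoe encodes apolipoprotein E, the main lipid carrier of the brain, made chiefly by astrocytes. Its signals were 2632.6, 236.9, 4133.4 and 307.4 without AzaC and 3895, 1830.6, 8116.3 and 1949 with it. Every pair was higher with AzaC, but the groups overlapped, because both experiment 1 arrays without AzaC lay above both experiment 2 arrays with it. The fitted shift was 1.79 (SE 0.35, 95% interval 1.03 to 2.55, n = 4 against 4), 3.45-fold. It was 0.77 in experiment 1 and 2.81 in experiment 2. A second Apoe probe set was under the floor on 5 arrays and was not tested.

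Srebf1 encodes a transcription factor that drives fatty acid and sterol synthesis. Its signals were 435.2, 366.2, 531.5 and 222.6 without AzaC and 590.6, 2052, 817.7 and 1267.2 with it, so the groups did not overlap. The fitted shift was 1.51 (SE 0.36, 95% interval 0.71 to 2.31), 2.86-fold. As with Apoe, the pairs of experiment 2 shifted more, by 2.49 and 2.51, than those of experiment 1, by 0.44 and 0.62.

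Tagln2 (transgelin 2, an actin-binding protein) gave 630.5, 286.9, 720.2 and 268.3 without AzaC and 840.1, 1410.6, 890.6 and 1034.9 with it. All 4 AzaC arrays lay above all 4 others, and the fitted shift was 1.24 (SE 0.31, 95% interval 0.57 to 1.91). Maoa (monoamine oxidase A) gave 285.1, 34.1, 370.5 and 14.6 without AzaC and 371.3, 222.7, 544.5 and 260 with it. Its fitted shift was 1.84 (95% interval 0.79 to 2.88), with TSA 2 under the floor, and its groups overlapped through the experiment 1 arrays. Ezr (ezrin, which ties the cell membrane to actin) had a smaller shift, 0.71 (SE 0.18, 95% interval 0.32 to 1.10).

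The other 5 genes on the higher side were dim. Pspn (persephin, a neurotrophic factor of the GDNF family) gave 115.2, 23.6, 24.4 and 30.3 without AzaC and 213.8, 141, 131.2 and 170.6 with it, with no overlap. Its fitted shift, 2.10 (SE 0.42, 95% interval 1.17 to 3.02), was 4.28-fold. This was the only one of these 20 genes to pass in an alternative fit: without the untreated 1 array its shift was 2.62, with an adjusted p of 0.0337. Ropn1l, which encodes a ropporin-like protein of sperm tails and cilia, gave 18.9, 30.3, 8.6 and 50.9 without AzaC and 89.9, 121.4, 54.6 and 109.4 with it. Its groups were also separate, though by little (50.9 against 54.6), and 2 arrays without AzaC were under the floor. Pecam1 (an endothelial adhesion molecule, fitted shift 1.57) was under the floor on 3 arrays without AzaC and reached 66.0 to 97.3 with it. Adcyap1r1 (the receptor of the neuropeptide PACAP) and Nipsnap1 (a mitochondrial protein) had fitted shifts of 1.61 and 1.41. Adcyap1r1 reached the filter signal only on the 4 arrays with AzaC, so those arrays alone let it be tested.

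**Figure D2:**
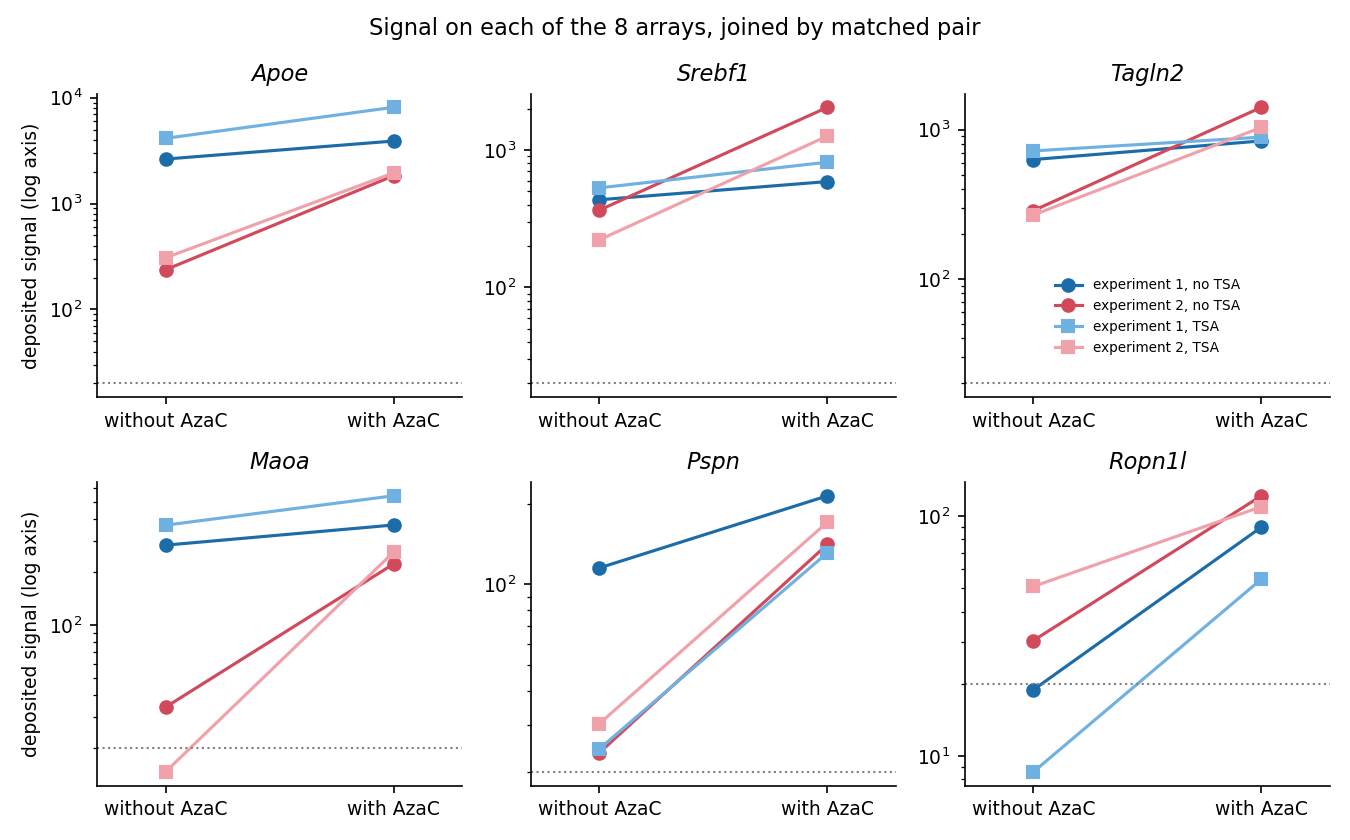
Deposited signal (log axis) of 6 genes on each of the 8 arrays, without AzaC on the left and with AzaC on the right of each panel, with a line for each matched pair and a dotted line at the floor of 20.01. Apoe, Srebf1, Tagln2 and Maoa slope more steeply in the 2 lines of experiment 2 (red) than in those of experiment 1 (blue), while Ropn1l does not. For Pspn the pair AzaC 1 is shallow (0.89), and the other 3 pairs are close (2.43 to 2.58).

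The 10 genes on the lower side had fitted shifts of -0.49 to -0.78. Scamp3 (a membrane protein of secretory carriers) gave 579, 409.9, 733.8 and 844.4 without AzaC and 348.2, 288.2, 463.8 and 394.9 with it. The fitted shift was -0.75 (SE 0.17, 95% interval -1.11 to -0.39), which is 1.68-fold lower, and the groups overlapped only where AzaC/TSA 1 lay above untreated 2. Lamtor3, a subunit of the late-endosome complex that recruits mTORC1, gave 426.1, 467.3, 593.5 and 745.3 without AzaC and 344, 261.5, 405.5 and 368.3 with it. All 4 AzaC arrays lay below all 4 others, and the fitted shift was -0.68 (SE 0.17, 95% interval -1.05 to -0.31).

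Nek7, a mitotic kinase that is also part of the inflammasome, had nearly the same shift in every pair, from -0.57 to -0.45. Its signals were 599.6, 644.1, 772.1 and 1157 without AzaC and 436, 435.2, 552.7 and 848.9 with it, and the groups overlapped because AzaC/TSA 2 stood above 3 arrays without AzaC. Rsrp1 (an arginine- and serine-rich protein) gave 889.9, 832.1, 2183.8 and 1377.3 without AzaC and 569.7, 528.2, 1819.4 and 777.5 with it, a fitted shift of -0.60. Ero1b, an oxidase of the endoplasmic reticulum, gave 113.8, 74.2, 359.8 and 344.5 without AzaC and 81.1, 31.5, 277.2 and 169 with it. Its fitted shift was -0.78 (95% interval -1.31 to -0.25), and both TSA levels showed it although the TSA arrays were brighter. The remaining 5 ran from -0.49 to -0.68: Ldhb (lactate dehydrogenase B), Ptgds (prostaglandin D synthase), Ubp1 (a transcription factor), Dhx30 (an RNA helicase) and Eea1 (an early endosome tether). Ptgds was read by 3 tested probe sets that disagreed, with fitted shifts of -0.58, 0.05 and 0.29.

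**Figure D3:**
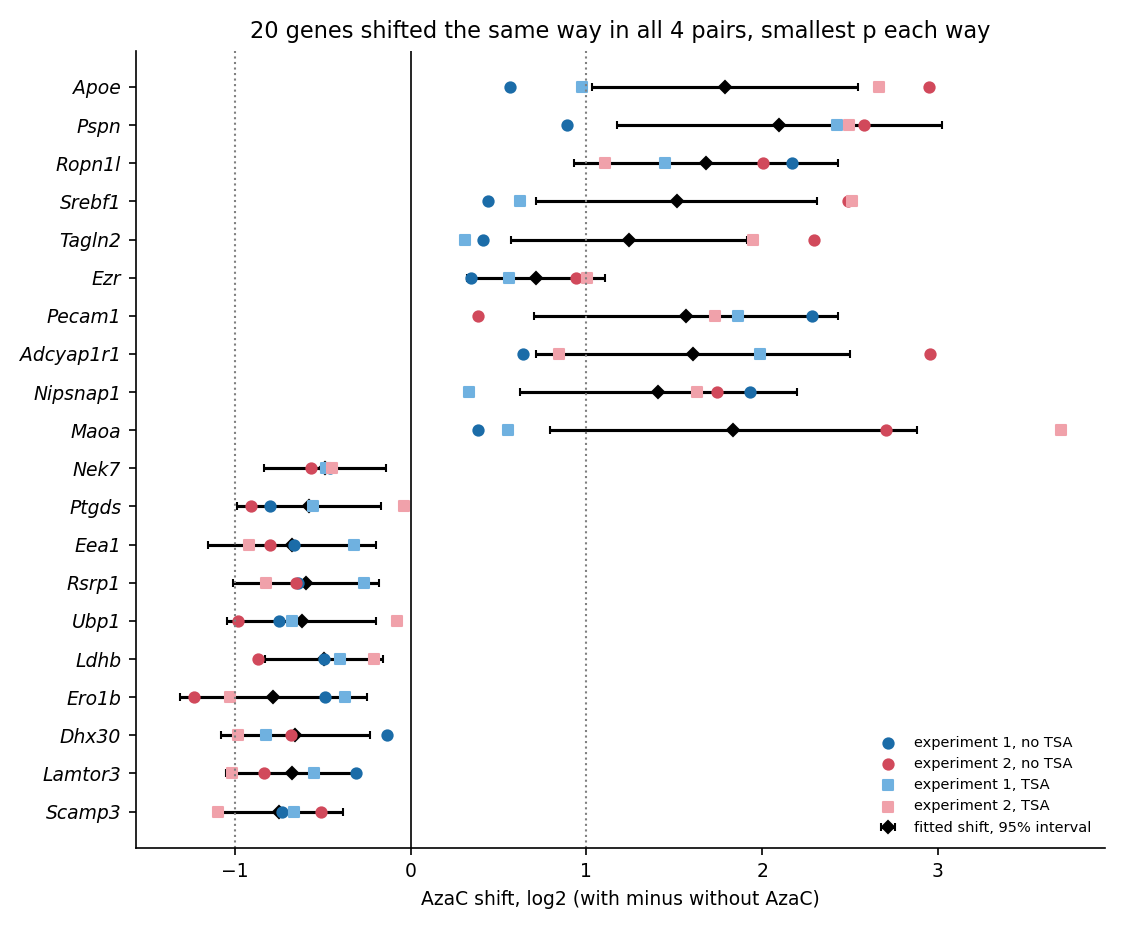
AzaC shift (log2, with minus without AzaC) in each of the 4 matched pairs for the 20 genes, with the fitted shift (black diamond) and its 95% interval (bar), and dotted lines at a 2-fold change. The 10 genes on the higher side spread widely, while the 10 on the lower side lie between -1.24 and -0.04. Experiment 2 (red) lies to the right of experiment 1 (blue) for Apoe, Srebf1, Tagln2, Ezr and Maoa, and narrowly for Pspn.

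Signals that crossed the filter level in 1 group of arrays gave a short list. Over all 12422 probe sets that are not controls, 8 reached the filter signal on all 4 arrays with AzaC and on none without it (0.0644%), and none did the reverse (0 of 12422, percent called 0). The 8 were probe sets of Eif3f, Ddx24, Atp5d, Tpp2, Pcgf2, Adcyap1r1 and Irgm2 and 1 without a gene name. Their margins were narrow. Irgm2 (an interferon-inducible GTPase) ran from 37.2 to 42.5 without AzaC and from 57.7 to 68.8 with it, and Pcgf2 (a Polycomb protein) from 14.5 to 44.7 and from 50.4 to 76.2. Another tested probe set of Ddx24, an RNA helicase, had a fitted shift of 0.12 against 1.24 for this one.

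The unnamed probe set 96215_f_at had the smallest p of all, with signals of 245.1, 727.5, 347.9 and 310.3 without AzaC and 156, 83.5, 25.3 and 15.1 with it. No AzaC array reached the level of any array without it. The fitted shift was -2.88 (SE 0.45, 95% interval -3.87 to -1.88, adjusted p 0.407), and of the 7987 it was the only one whose interval lay wholly beyond a 2-fold decrease. Without the untreated 1 array, 3 probe sets passed: this one (-3.51, adjusted p 0.00113), Pspn and 1 of Erdr1 (-2.74, adjusted p 0.000683). Without both untreated 1 and AzaC 1, 2 passed, 96215_f_at (-3.62) and that of Erdr1 (-2.68), each with an adjusted p of 0.00374. Over all 8 arrays that Erdr1 probe set had a fitted shift of -1.85, with 1 pair higher by 0.63, and a second Erdr1 probe set 0.08.

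The targets of the drug came first among the genes chosen for their role. Dnmt1, the maintenance methyltransferase that AzaC traps, gave 536, 749.9, 251.6 and 376.3 without AzaC and 663.9, 648.5, 187.5 and 228.7 with it. The groups overlapped, the fitted shift was -0.26 (SE 0.19, 95% interval -0.67 to 0.15), and a 2-fold change of the transcript lay outside the interval. In the arrays without TSA alone the Dnmt1 shift was 0.05, and in those with TSA alone it was -0.57. Uhrf1, which guides Dnmt1 to newly copied DNA, had a fitted shift of 0.05 (95% interval -0.50 to 0.59), with signals of 48.5 to 114.8 on the arrays with TSA and 343.5 to 788.9 on the others. That value averages opposite shifts, of 0.26 and 0.87 in the pairs without TSA and of -0.70 and -0.25 in those with it. The interaction of Uhrf1 did not pass (adjusted p over 0.99 in limma).

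Dnmt3a, a de novo methyltransferase, was dim: 95.8, 4.8, 38.5 and 51.5 without AzaC and 116, 82.5, 92.7 and 66.6 with it. All 4 pairs were higher with AzaC and the fitted shift was 0.99 (95% interval 0.11 to 1.87, adjusted p 0.849), with untreated 2 under the floor. Of 11 tested genes of DNA methylation and its readers, 9 excluded a 2-fold change, 1 was higher in all 4 pairs and none lower in all 4, and the median shift was -0.03. Of all 6011 genes tested, 4423 (73.6%) excluded a 2-fold change, and 6.97% were higher and 7.49% lower in all 4 pairs. Of 27 genes of histone deacetylases and repressor complexes, 26 excluded a 2-fold change, among them Hdac1 (-0.05, 95% interval -0.39 to 0.30) and Hdac2 (-0.22, 95% interval -0.56 to 0.12). Of these 27, 2 were higher and 3 lower in all 4 pairs, beside the same 6.97% and 7.49% of all genes. Dnmt3b and H19 were not analysed here.

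Methylation-dependent classes were read next. The germ-line and testis list held 40 genes, of which 21 had a probe set and only 2 reached the filter, Rhox5 (-0.49) and Tnp1 (0.06). Of the other 19, 13 were under the filter signal on every array and 6 reached it on 1 array each, 2 times with AzaC and 4 times without. Rhox5, a homeobox gene, shifted by -0.06, 0.07 and 0.08 in 3 pairs and by -2.07 in the pair AzaC/TSA 1. Without the AzaC/TSA 1 array its fitted shift was 0.02. Among 17 tested imprinted genes the median shift was -0.12, and 10 excluded a 2-fold change. In all 4 pairs 1 was higher and 2 lower, beside 6.97% and 7.49% of all genes.

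Igf2, a fetal growth factor expressed from the paternal allele, gave 47, 113.2, 958.9 and 472.6 without AzaC and 29.9, 25.9, 651.7 and 354.6 with it. Every pair was lower, the groups overlapped because the TSA arrays were the brighter ones, and the fitted shift was -0.94 (95% interval -1.72 to -0.15, adjusted p 0.849). Mest, also imprinted, was higher in every pair (fitted shift 0.51, 95% interval 0.16 to 0.86). Nnat (neuronatin) gave 1227.9, 324.7, 1258.7 and 193.8 without AzaC and 1182, 80.1, 1264.8 and 57.9 with it, and its pairs shifted by -0.05 and 0.01 in experiment 1 and by -2.02 and -1.74 in experiment 2.

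Genes of the cell cycle and of damage responses were tested in larger numbers. Of 39 mitosis genes, 33 excluded a 2-fold change, and the median shift was 0.02. For DNA replication and S phase, 32 of 40 genes did, with a median of 0.01. The pair medians of that list were 0.143 and 0.144 without TSA and -0.136 and -0.126 with it. Mki67, a marker of proliferating cells, had a fitted shift of -0.23 (95% interval -0.72 to 0.26), and 2 of its TSA-treated arrays lay under the floor. With a lower floor its direction turned, to 0.23. Among 26 tested p53 targets and growth arrest genes, 4 were higher and none lower in all 4 pairs, beside 6.97% and 7.49% of all genes, and 22 excluded a 2-fold change.

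Cdkn1a (p21, the cyclin-dependent kinase inhibitor induced by p53) gave 1225.3, 806, 1781.7 and 1030.2 without AzaC and 1372.1, 1074.1, 2236.7 and 1507.5 with it. All 4 pairs were higher by 0.16 to 0.55, the groups overlapped, and the fitted shift was 0.36 (95% interval 0.07 to 0.65, adjusted p 0.849), whose upper bound is a 1.57-fold increase. A second tested Cdkn1a probe set had a fitted shift of 0.20 (95% interval -0.18 to 0.57), with the pair AzaC 1 lower. Cdkn2b (p15, another such inhibitor) had a fitted shift of 1.54 (95% interval 0.42 to 2.66), with untreated 2 and TSA 2 under the floor. Among 20 tested genes of apoptosis and the Bcl2 family, 5 were higher and 1, Bcl2l2 (-0.52), lower in all 4 pairs, beside 6.97% and 7.49% of all genes, with a median of -0.01. The 2 tested probe sets of Bcl2, the family member that the transgene also encodes, differed, with -0.03 for the brighter and 0.61 for the other. Among 36 stress response genes none was higher and 5 were lower in all 4 pairs, led by Junb (-0.64), beside the same 6.97% and 7.49%, with a median of 0.01.

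Genes of cell identity gave no list with a called member. Of 20 tested neural stem and progenitor genes, 3 were higher and 1 lower in all 4 pairs, beside 6.97% and 7.49% of all genes. Their median was 0.07. Nes (nestin, the intermediate filament of neural progenitors) gave 2376.2, 2053.3, 1049 and 1949.6 without AzaC and 2258.6, 3003, 2007.6 and 2921.3 with it. Of its 4 pairs, 3 were higher and 1 lower (-0.07), and the fitted shift was 0.50 (95% interval 0.09 to 0.90). Sox2, a transcription factor that keeps progenitors undifferentiated, had a fitted shift of 0.10 (95% interval -0.28 to 0.49) at signals of 2390.6 to 4830.4. Notch1, a receptor that maintains progenitors, was higher in all 4 pairs (0.37, 95% interval 0.01 to 0.72).

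Neuronal genes (22 tested, median 0.11) held Tubb3, a neuronal tubulin, at 0.05 (95% interval -0.37 to 0.47), and Mapt (tau), higher in all 4 pairs at 0.44 (95% interval 0.12 to 0.76). Further tested Mapt probe sets had fitted shifts of 0.54 and of 0.26 (95% interval -0.40 to 0.92). The latter was lower in the pair AzaC/TSA 2, at 150.3 without AzaC and 124.2 with it. Among 10 astrocyte genes the median was 0.16. The pair medians were 0.19 for AzaC 1, 1.20 for AzaC 2, 0.077 for AzaC/TSA 1 and -0.095 for AzaC/TSA 2. Of the 10, 3 excluded a 2-fold change, and 1 was higher and none lower in all 4 pairs, beside 6.97% and 7.49% of all genes. Apoe, described above, and Ndrg2 and Aldoc, given below, were picked as the members of smallest p. Of this list, Gfap, the astrocyte intermediate filament, stood at 16.9 to 66.7 on the 8 arrays with a fitted shift of 0.51 (95% interval -0.32 to 1.34), and Ndrg2, a cytoplasmic protein of astrocytes, had one of 1.47 (95% interval 0.57 to 2.37), 0.63 in experiment 1 and 2.31 in experiment 2. Aldoc (aldolase C) had a fitted shift of 0.68 (95% interval 0.12 to 1.23), 0.12 in experiment 1 and 1.24 in experiment 2. Both were lower in the pair AzaC/TSA 1, with shifts of -0.10 for Ndrg2 and -0.18 for Aldoc, and Ndrg2 was under the floor on untreated 2 and TSA 2. The oligodendrocyte list had the highest median of all, 0.31, on 5 genes, and the microglia list the lowest, -0.28, on 3. Fewer cells of a type and less RNA per cell cannot be told apart in these bulk samples.

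Srebf1 belonged to the cholesterol synthesis list, with 17 tested genes and a median shift of -0.22. Besides Srebf1, 2 of these genes shifted the same way in all 4 pairs, and both were lower. Over all genes, 6.97% were higher and 7.49% lower in all 4 pairs. One was Fdft1 (squalene synthase, -0.48, 95% interval -0.89 to -0.07). Dhcr7, the last enzyme of the pathway, had a fitted shift of -0.55 (95% interval -1.11 to 0.01). The pair medians of this list were 0.24 for AzaC 1, -0.59 for AzaC 2, -0.24 for AzaC/TSA 1 and -0.15 for AzaC/TSA 2.

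Over the 22 lists, 361 genes were tested and none was called. Of these, 27 were higher in all 4 pairs (7.48%) and 21 lower (5.82%), close to the 6.97% and 7.49% of all genes, and 250 excluded a 2-fold change (69.3%), against 73.6% of all genes. Hox genes (11 tested, median 0.01), histones (6, median -0.23), interferon response (12, median 0.11), MHC class I and antigen processing (14, median -0.07), fibroblasts and meninges (12, median 0.21), endothelial cells and pericytes (3, median 0.17) and blood cells (11, median -0.01) gave the rest. All 6 histone genes excluded a 2-fold change, but only 2 of 11 Hox genes did. Of 20 further Hox genes on the array, 18 were under the filter signal on every array.

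Some of the members of smallest p within their lists are given with their values, and none of them passed the test. Rsad2 (viperin, an interferon-induced antiviral protein) gave 30.7, 58.2, 100.6 and 286 without AzaC and 23.4, 21.8, 72.6 and 111.6 with it. Every pair was lower, and the fitted shift was -0.91 (95% interval -1.62 to -0.20, adjusted p 0.849). Reln (reelin, the signal of early cortical neurons) gave 43.2, 35.1, 230.4 and 323.8 without AzaC and 5.9, 22, 217 and 44.3 with it, with pair shifts from -2.87 to -0.09. Hoxb13 had a fitted shift of -1.28, but all 4 of its AzaC arrays lay under the floor. It was tested only through 2 arrays without AzaC that reached the filter signal.

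Pdia3 (a disulfide isomerase that helps to load MHC class I) gave 1217.6, 465.1, 1022.8 and 565.2 without AzaC and 1184.1, 1280.2, 1086.9 and 1428.2 with it. The pairs of experiment 1 were nearly level, and the fitted shift of 0.71 (95% interval 0.16 to 1.26) came from experiment 2, where the pairs shifted by 1.46 and 1.34. Ephx1 (a detoxifying epoxide hydrolase induced by p53) had shifts of -0.52 and 0.72 in experiment 1 and of 0.92 and 2.02 in experiment 2, with a fitted value of 0.79 (95% interval 0.13 to 1.44). Trib3, a pseudokinase of the stress response, had a fitted shift of 1.11 (95% interval 0.10 to 2.13) at signals of 14.8 to 116.1.

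The AzaC shift was also read by TSA level and by experiment. No probe set passed for the AzaC by TSA interaction (0 of 7987, percent called 0), 258 had an unadjusted p under 0.05 (3.23%), and the smallest adjusted p was 0.270. That smallest p belonged to Cd4, a T-cell co-receptor, with signals of 18.1, 20.2, 96.9 and 143.3 without AzaC and 107.8, 93.1, 18.9 and 14.5 with it. It was higher with AzaC in both pairs without TSA and lower in both with TSA, at dim signals throughout. Without the untreated 1 array, 1 probe set passed for the interaction, of Anxa2 (-3.65, adjusted p 0.0493). The interaction had a median half-width of 1.11, so differences of 2-fold between the AzaC shifts with and without TSA were within the intervals of most probe sets.

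The pairs of the 2 experiments were then set side by side. Across probe sets, the shifts of the 2 pairs of experiment 2 correlated with r = 0.22, and with r = 0.42 over the 3390 probe sets of mean signal over 200. The 2 pairs of experiment 1 gave 0.01 and 0.03, and pairs from different experiments -0.05 to 0.06 over all probe sets and -0.12 to 0.18 over the brighter ones, highest for AzaC/TSA 1 with AzaC/TSA 2. These are descriptions over probe sets, which are not replicates. Whether the pairs of 1 experiment came from the same embryos is not given. Shifts over 1 in size were also more frequent in experiment 2, at 12.2% and 12.7% of probe sets against 8.61% and 7.91% in experiment 1. With an AzaC by experiment term, added after the data had been seen, no probe set passed (0 of 7987, percent called 0), 511 had an unadjusted p under 0.05 (6.40%), and the smallest adjusted p was 0.0962.

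The genes of smallest p for that term are named after their values were seen. Mdk (midkine, a heparin-binding growth factor) gave 559.6, 53.3, 892.5 and 27.2 without AzaC and 633.3, 2069.3, 604.6 and 475.4 with it. Its shift was -0.19 in experiment 1 and 4.70 in experiment 2, where both arrays without AzaC stood far below all 6 others. Sparc (a matrix protein) gave 722.9, 291.6, 1084.6 and 506.9 without AzaC and 328.6, 890.7, 993.2 and 1923.5 with it, a shift of -0.63 in experiment 1 and 1.77 in experiment 2. Gja1 (connexin 43, the gap junction protein of astrocytes and progenitors) went the other way, by 0.84 in experiment 1 and -1.59 in experiment 2.

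Apoe, Tagln2 and Maoa, described above for their shift in all 4 pairs, were also among the 10 probe sets of smallest p for the difference between the experiments. Taken alone, experiment 1 called no probe set for AzaC (484 at an unadjusted p under 0.05, smallest adjusted p 0.164), nor did experiment 2 (811, smallest adjusted p 0.0529). Because the origin of each culture within experiment 2 is not given, an AzaC effect there and a difference between its cultures cannot be told apart.

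**Figure D4:**
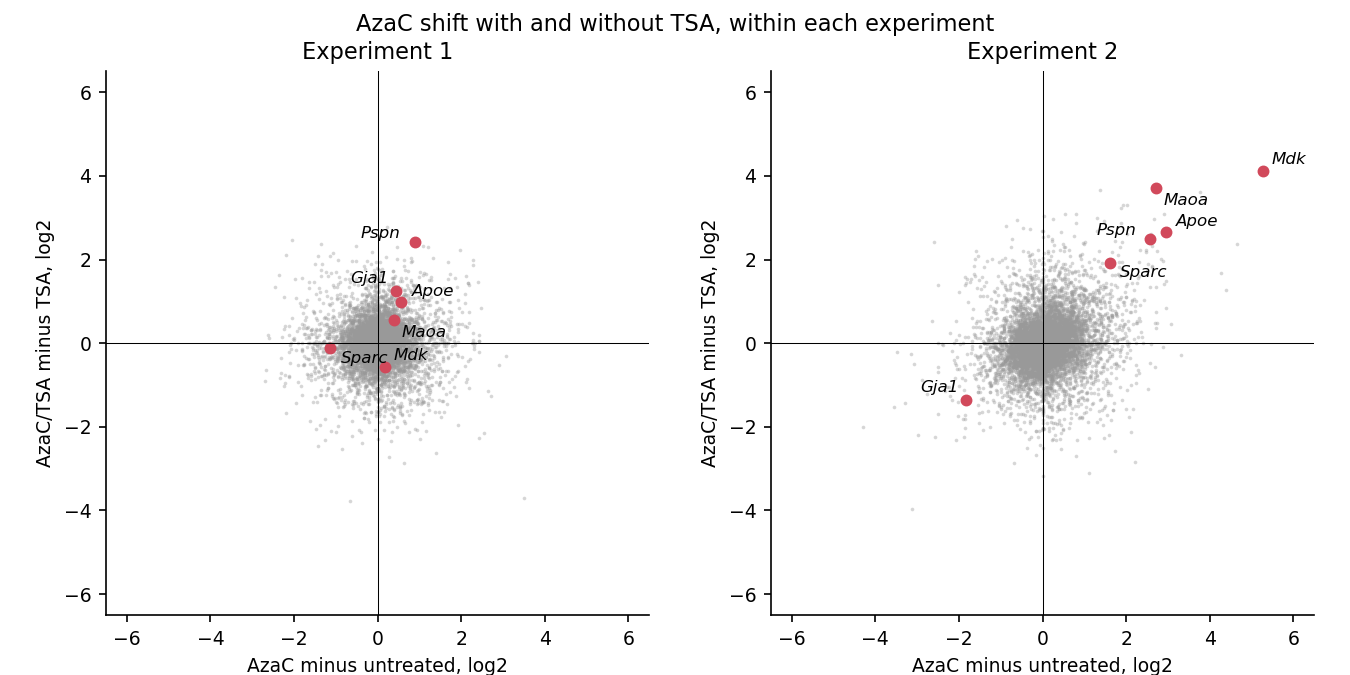
AzaC shift with TSA (vertical axis, AzaC/TSA minus TSA, log2) against the shift without TSA (horizontal axis, AzaC minus untreated, log2) for the 7987 probe sets, in experiment 1 (left) and experiment 2 (right), with 6 genes in red. The cloud is round in experiment 1 (r = 0.01) and stretched along the diagonal in experiment 2 (r = 0.22), where Mdk, Maoa, Apoe, Pspn and Sparc lie at the upper right and Gja1 at the lower left.

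Promoter CpG content was set beside the shifts, since CpG is the site whose methylation AzaC prevents. RefSeq promoters of 300 bases (250 before and 50 after the start, build GRCm38.p6, first promoter listed per gene) matched 4866 tested genes (81.0%). The motif CG, which reads the same on both strands, occurred in 94.2% of all 27025 promoters of that length, with a median of 7. In 5 equal classes from the lowest to the highest ratio of observed to expected CpG, the median AzaC shift was 0.04, -0.01, 0.00, -0.03 and -0.03. The share of genes higher in all 4 pairs was 5.65% in the lowest class and 6.68% in the highest, and the share lower in all 4 was 5.54% and 9.46%. The classes also differed in signal, with a median of 90.4 in the lowest and 247 in the highest, and in the share that excluded a 2-fold change, 54.4% and 84.6%. The part of signal level in these differences was not tested.

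The genes named above spanned the range of CpG content: the ratio had a median of 0.60 in 9 of the 10 higher genes (0.21 to 1.10) and of 0.74 in 8 of the 10 lower ones (0.08 to 1.04), against 0.78 over all matched genes. The sequences upstream of the start of Apoe and Srebf1, the brightest of the 10 higher genes with Tagln2, are shown 5′ to 3′ with each CpG in capitals, to set a promoter of low ratio (0.40 for Apoe) beside one near the median (0.77 for Srebf1). Apoe held 8 CpG in the 250 bases at chr7:19699189-19699438 and Srebf1 held 16 at chr11:60222582-60222831, both on the minus strand of GRCm38.p6. Whether any of these sites was methylated in the cultures was not measured.
Apoe: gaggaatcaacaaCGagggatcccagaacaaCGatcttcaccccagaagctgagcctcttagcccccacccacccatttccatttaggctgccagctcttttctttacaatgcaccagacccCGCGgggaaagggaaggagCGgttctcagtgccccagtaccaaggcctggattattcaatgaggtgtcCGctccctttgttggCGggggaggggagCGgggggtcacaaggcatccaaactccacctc
Srebf1: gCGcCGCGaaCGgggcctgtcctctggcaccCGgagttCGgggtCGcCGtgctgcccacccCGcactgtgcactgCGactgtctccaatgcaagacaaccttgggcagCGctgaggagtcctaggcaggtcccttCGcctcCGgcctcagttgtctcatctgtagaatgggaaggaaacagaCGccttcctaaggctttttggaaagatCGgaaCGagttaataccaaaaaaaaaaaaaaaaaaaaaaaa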

How the data were processed

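RNA of 8 neurosphere cultures was measured on short-oligonucleotide arrays. The authors deposited 1 signal intensity per probe set and array on a linear scale; the values show the same 2%-trimmed mean, 200.1, on every array, and the scanner software is not given in the sources used here. No scanner files, probe-level values or detection calls were used. The 66 control probe sets were left out. Intensities were floored at 10% and filtered at 25% (2 arrays) of the trimmed mean, then log2-transformed. The model was a limma fit (version 3.58.1, R 4.3.3; lmFit, eBayes with an intensity trend, two-sided, 4 residual degrees of freedom, prior 7.09), with AzaC, TSA and experiment as terms, with Benjamini-Hochberg adjustment of the p-values across 7987 probe sets. The fit was tested on simulated data.

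The titles number the experiments, and deviations from group means correlated by number (r from 0.203 to 0.411 over 6 pairs of groups), so the experiment number pairs the arrays and is a block in the fit.

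The array annotation gave 1 symbol to 10855 probe sets, several to 396 and none to 1237, and 10839 of the first had their gene in RefSeq. A gene was read by its probe set of highest mean. Named genes were the 10 each way of smallest p with the same sign in all 4 pairs (none passed, so the rule's first choice was empty), the 3 members of each list with the smallest p, 18 genes fixed by role and up to 3 each way for the interaction. The comparison, lists (630 genes in 22) and genes were chosen with earlier results of these data known. The number of arrays limits the precision. Alternatives covered scaling, floor, filter, eBayes options, the blocks, the interaction term and arrays left out.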

Additional observations from a re-analysis of the deposited data

Results flagged for a closer look

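Of 96 named genes, 7 had 1 matched pair whose AzaC shift stood apart from the other 3 by Dixon's ratio, which chance flags in about 1 of 20 groups. Pspn shifted by 0.89 in the pair AzaC 1, against 2.43 to 2.58 in the others. Bnip3, a mitochondrial cell-death gene, shifted by 1.32 in the same pair, against 0.24 to 0.42. In the pair AzaC 2, Hdac2 shifted by -0.65 (others -0.14 to -0.04), Igf2 by -2.13 (others -0.65 to -0.41) and Csf1r, a macrophage growth factor receptor, by 1.14 (others -0.87 to -0.60). Igfbp2, a binding protein of insulin-like growth factors, shifted by 0.75 in the pair AzaC/TSA 2, against 0.01 to 0.09. Rhox5 shifted by -2.07 in the pair AzaC/TSA 1, against -0.06 to 0.08. No explanation of these pairs was tested.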

How the results depend on the processing

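Under 29 alternative settings the count of probe sets called for AzaC stayed at 0, apart from 3 without untreated replicate 1 and 2 without the pair untreated 1 and AzaC 1, and leaving out arrays or pairs gave 0 to 3. Without the experiment as a block (no replicate block) 0 were called and 244 had an unadjusted p under 0.05, and 64.5% of intervals excluded a 2-fold change. With each matched pair as its own block 0 were called and 73.6% did. That share was 60.9% to 66.6% when arrays or pairs were left out, with half-widths of 0.58 to 0.64. It was 39.0% in experiment 2 alone, 39.6% in the arrays without TSA and 44.5% in those with TSA, with half-widths of 0.84, 0.89 and 0.81, and 59.7% in experiment 1 alone, with 0.64. It was 88.4% with a floor of 20%, 85.0% with an offset in place of the floor and 83.2% with a filter of 50%. With a floor of 2.5% it was 67.9% and with no filter 68.9%, against 70.9% in the main fit. The interaction count ran from 0 to 1 when arrays were left out, and the 1 came without untreated replicate 1. The TSA count was 1279 with no filter, 780 in experiment 2 alone, and 924 to 1718 when arrays or pairs were left out, lowest without TSA 1 and AzaC/TSA 1. The number shifted the same way in all 4 pairs was within 1.5 times 1147 under every scaling, floor and filter tried; it needs all 8 arrays and does not depend on the fit. The interaction within 1 experiment has no residual degrees of freedom and was not run.

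The list medians moved beyond their spread between pairs as follows. Median centring gave -0.034 for histone deacetylases and repressor complexes, a floor of 2.5% gave -0.56 for microglia and macrophages, and a filter of 50% gave 0.11 for apoptosis. Experiment 1 alone gave -0.0077 for oligodendrocyte lineage, -0.32 for blood cells, -0.062 for fibroblasts and meninges and 0.076 for histones. Experiment 2 alone gave 0.49 for fibroblasts and meninges, 0.24 for p53 targets, 0.040 for histone deacetylases, 0.14 for apoptosis and 0.12 for stress response. Arrays without TSA gave 0.39 for neurons, -0.10 for p53 targets, 0.0098 for histone deacetylases, 0.14 for apoptosis and 0.57 for Hox genes. Arrays with TSA gave 0.26 for neural stem cells, -0.70 for microglia, 0.10 for imprinted genes, -0.24 for interferon response, 0.18 for p53 targets and -0.094 for histone deacetylases. When arrays or pairs were left out, medians ran from -0.13 to 0.083 for MHC class I, -0.042 to 0.089 for apoptosis, -0.31 to 0.070 for blood cells, -0.077 to 0.034 for histone deacetylases, -0.25 to 0.071 for imprinted genes, -0.45 to -0.073 for microglia, -0.055 to 0.20 for p53 targets and -0.14 to 0.084 for stress response.

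Of 96 named genes, 30 changed sign under some setting, and for 16 of these the shift over all 8 arrays exceeded its SE; these 16 are given next. Mki67 gave 0.23 at the floor of 2.5%, 0.00018 with an offset in place of the floor and 0.092 in experiment 1 alone. That experiment alone also turned Kit (0.32), Stmn3 (-0.011), Pdgfra (-0.0077), Cx3cr1 (0.13), Lgals1 (-0.042) and Ifi35 (-0.54). Sox10 turned without AzaC replicate 1 (-0.0015) and in experiment 2 alone (-0.16). Rhox5 turned without AzaC/TSA replicate 1 (0.024), in experiment 2 alone (0.077) and in the arrays without TSA (0.0048), and ran from -0.76 to 0.031 when arrays or pairs were left out. Those arrays also turned Dnmt1 (0.050), Repin1 (-0.54), Bcan (-0.20), Reg2 (1.03), Kif2c (0.23) and Hoxa3 (0.0094), and the arrays with TSA turned Samhd1 (-0.25). The other 14 had shifts within 1 SE of 0, among them Uhrf1 (-0.48 with TSA), Cd4 (2.32 without TSA) and Ppfibp2 (1.05 without TSA). The cause was not tested. Signals near the floor limit what the dim probe sets can show.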
